A study of Danio rerio with 11 samples.

Results

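The genes described here are pklr, slc2a2 and me1, which handle sugar and fat precursors in the liver, and aldoab, an aldolase gene expressed in muscle. These 4 genes, of 7792 named genes on the array, were chosen from their symbols with earlier results of the same arrays in view, so that their differences between mutant and other arrays are a description and carry no p-value. Each gene was measured by 1 probe set. The study measured gene expression in livers taken from zebrafish larvae at 4 days post-fertilisation (dpf), to find genes that differ when methylation is inhibited. The ahcy mutants (3 arrays) had the genotype ahcy -/- and received vehicle, the azacytidine group (4 arrays) was ahcy +/+ and received 1 mM azacytidine, and the controls (4 arrays) were ahcy +/+ and received vehicle. Injection was into the yolk at 2 dpf in all 3 groups, larvae were kept at 28 °C, and the RNA was amplified in 2 rounds before labelling, with both biotin and Cy3 named as the label. The gene ahcy encodes the enzyme that removes S-adenosylhomocysteine, the by-product of methyl transfer, and azacytidine is a cytidine analogue that traps DNA methyltransferases. The labels state neither the strain, the ahcy allele nor whether larvae were pooled or came from separate clutches, so the p-values here reflect how far these particular samples scatter, and part of that scatter may be technical.

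Glucose enters and leaves hepatocytes largely through the carrier encoded by slc2a2 (GLUT2). Inside the cell, glycolysis splits the sugar at the aldolase step and ends with pyruvate kinase, whose liver and red cell form is encoded by pklr. Cytosolic malic enzyme, encoded by me1, oxidises malate to pyruvate and yields NADPH, the reducing agent for fatty acid synthesis. In mammals, sugar-rich feeding raises the liver pyruvate kinase and malic enzyme genes through the transcription factor encoded by mlxipl. The aldolase A form encoded by aldoab belongs to the high glycolytic capacity of skeletal muscle, whereas hepatocytes rely mainly on aldolase B.

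The liver genes pklr and me1 were far lower in ahcy mutants than in controls or azacytidine-treated larvae. The dim slc2a2 was lower too, by an amount that is not well measured, whereas aldoab was highest in mutants and lowest with azacytidine. Between azacytidine and control arrays, none of the 4 genes passed the test. All values are log2 levels or log2 differences unless a fold is stated, so that a difference of 1 is a 2-fold change. Levels of different probe sets are not comparable with each other, since hybridisation efficiency differs between probes.

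For pklr, the mutant arrays 3, 4 and 6 stood at log2 levels of 7.98, 6.25 and 6.14. Azacytidine arrays 1, 2, 5 and 6 stood at 10.66, 10.36, 11.20 and 10.03, and control arrays 1, 2, 4 and 8 at 10.97, 10.65, 11.35 and 11.01. All mutant arrays lay below all others, mutant 3 was the highest mutant, and azacytidine and control arrays overlapped. Mutants averaged 6.79 ± 1.03 (SD, n = 3), azacytidine arrays 10.56 ± 0.50 (SD, n = 4) and controls 11 ± 0.29 (SD, n = 4). The mutant minus control difference was -4.20 ± 0.42 (standard error of the limma fit over all arrays), 18.4-fold lower in mutants and the 15th lowest of the 7792 genes. Leaving out 1 array, this difference ranged from -4.80 without mutant 3, the mutant closest to the other groups, to -3.88 without mutant 6. The mutant minus azacytidine difference was -3.77 ± 0.42, or 13.7-fold.

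For me1, the mutant arrays stood at 4.94, 5.54 and 4.98, the azacytidine arrays at 10.98, 10.76, 10.25 and 9.27, and the control arrays at 9.95, 9.36, 9.63 and 9.88. The mutant arrays were close together and lay below all others, and azacytidine arrays spread on both sides of the controls. Mutants averaged 5.15 ± 0.34 (SD, n = 3), azacytidine arrays 10.31 ± 0.76 (SD, n = 4) and controls 9.71 ± 0.27 (SD, n = 4). The mutant minus control difference of -4.55 ± 0.37 corresponded to 23.5-fold lower levels and was the 11th lowest of the 7792 genes. Against azacytidine it was -5.16 ± 0.37, or 35.8-fold.

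For slc2a2, the mutant arrays stood at 1.84, 2.74 and 1.35, the azacytidine arrays at 5.85, 5.76, 4.47 and 5.58, and the control arrays at 5.10, 5.99, 4.60 and 5.01. All 3 mutant levels fell under the 10th percentile of their arrays, which lay between 4.37 and 4.51, where levels depend most on background correction. All mutant arrays lay below all others, and azacytidine and control arrays overlapped. Mutants averaged 1.98 ± 0.71 (SD, n = 3), azacytidine arrays 5.42 ± 0.64 (SD, n = 4) and controls 5.17 ± 0.59 (SD, n = 4). The mutant minus control difference was -3.20 ± 0.42, the 40th lowest of the 7792 genes, and the mutant minus azacytidine difference was -3.44 ± 0.42. With levels under the 10th percentile set at that percentile, a treatment chosen after seeing the data, these differences were -0.73 and -0.97. Only mutant levels were under the 10th percentile, so this floor could shrink the differences but could not reverse their direction. Mutant 3 then stood at 4.51, above azacytidine 5 at 4.47. The size for this dim probe set is therefore not well measured.

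For aldoab, the order was different. The mutant arrays stood at 11.21, 11.57 and 11.71, the azacytidine arrays at 9.13, 9.22, 7.89 and 8.64, and the control arrays at 9.44, 10.15, 10.52 and 10.58. The 3 groups did not overlap, with a gap of 0.63 between the lowest mutant and the highest control and of 0.22 between the highest azacytidine array and the lowest control. Mutants averaged 11.50 ± 0.26 (SD, n = 3), azacytidine arrays 8.72 ± 0.61 (SD, n = 4) and controls 10.17 ± 0.52 (SD, n = 4). The mutant minus control difference was 1.32 ± 0.35, 2.5-fold higher in mutants and the 419th highest of the 7792 genes, and against azacytidine it was 2.78 ± 0.35, or 6.85-fold.

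**Figure D1:**
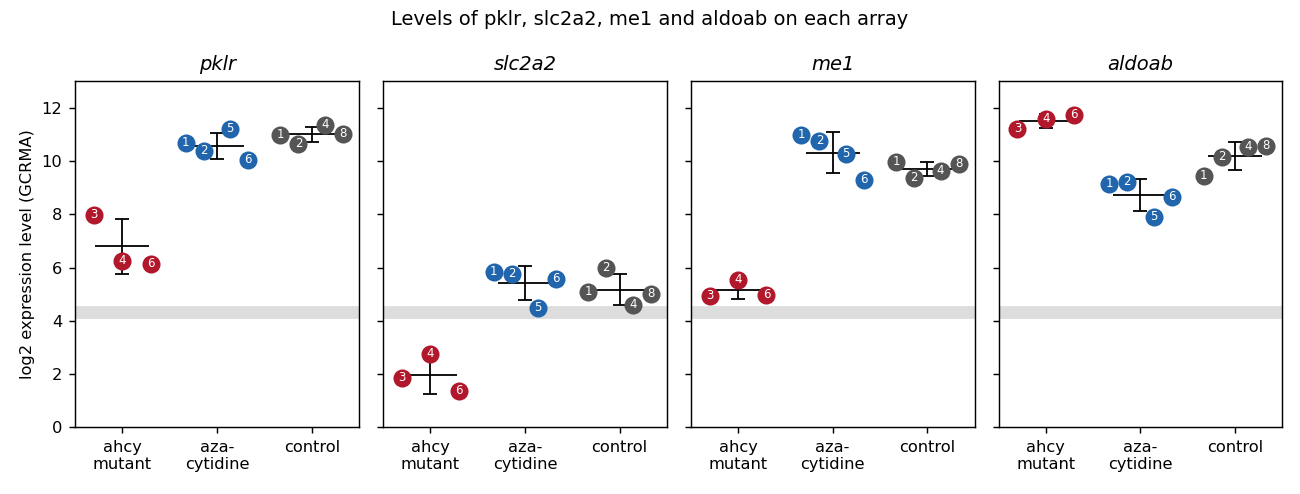
Log2 expression level (vertical axis) of pklr, slc2a2, me1 and aldoab on each array, with ahcy mutant arrays left, azacytidine arrays in the middle and control arrays right. Numbers in the points are sample numbers, the wide bar is the group mean, error bars are SD, and the grey band is the range of the arrays' 10th percentiles; the mutant arrays lie lowest for the first 3 genes, within 1.35 to 2.74 for slc2a2, and highest for aldoab, at 11.21 to 11.71.

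Over all 12784 probe sets, 6.23% were called higher and 5.87% lower in mutants than in controls at an adjusted p under 0.05 (limma, Benjamini-Hochberg). Against azacytidine arrays 18.2% were called higher and 11.1% lower in mutants. All 4 genes passed in both comparisons, with the 3 liver genes lower and aldoab higher, but these same differences entered the choice of the genes, so nothing is read from that count. Centring each array on its median changed the split of calls for mutants against controls to 618 higher and 890 lower, where the values as deposited gave 797 and 750, and for mutants against azacytidine to 1629 and 2068, where the values as deposited gave 2329 and 1424. All 4 genes kept their directions under this centring.

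Between azacytidine and control arrays, 0.399% of probe sets were called higher and 0.180% lower, and 0 of the 4 genes were called in either direction. The difference was -0.43 ± 0.39 for pklr (95% confidence interval -1.28 to 0.41, adjusted p = 0.678), 0.24 ± 0.39 for slc2a2 (interval -0.61 to 1.09, adjusted p = 0.842) and 0.61 ± 0.35 for me1 (interval -0.15 to 1.37, adjusted p = 0.441). Differences for me1 of up to 1.37 are therefore inside the interval, and the test does not show that these levels were equal. For aldoab the difference was -1.45 ± 0.32 (interval -2.16 to -0.75, adjusted p = 0.0697), a 2.74-fold lower level with azacytidine that missed the threshold although the groups did not overlap. Without control 1, the control array with the lowest aldoab, the difference was -1.70 and passed (adjusted p = 0.0367). Leaving out the control nearest the azacytidine arrays can only widen this difference. The 4 genes were chosen with earlier results of these arrays in view. Their p-values between azacytidine and controls may therefore not be independent of that choice. Before adjustment in limma, 1 of the 4 genes, aldoab, had a p-value under 0.05, beside 669 higher and 1270 lower of all 12784 probe sets.

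The measured paralogs of pklr and me1 did not share the direction of those genes. The other measured pyruvate kinase, pkma, which encodes the muscle-type enzyme, stood at 8.40, 7.95 and 7.77 on mutant arrays, at 6.41, 6.70, 6.82 and 6.66 on azacytidine arrays, and at 6.34, 6.40, 7.75 and 7.46 on control arrays. Its mutant minus control difference of 1.05 did not pass (adjusted p = 0.0769), except without control 4 (1.31, adjusted p = 0.0261), whereas mutant minus azacytidine passed at 1.39 (adjusted p = 0.0131). The malic enzyme paralog me3, whose mammalian product is mitochondrial, stood at 6.63, 7.81 and 7.93 on mutant arrays, at 4.88, 6.10, 5.15 and 5.64 on azacytidine arrays and at 5.46, 6.04, 6.49 and 5.42 on control arrays. It rose in mutants by 1.60 against controls (adjusted p = 0.0218) and by 2.01 against azacytidine (adjusted p = 0.00341). The call against controls was lost without mutant 6 (1.37, adjusted p = 0.0985), mutant 4 (1.43, adjusted p = 0.0832), control 1 (1.47, adjusted p = 0.0613) or control 8 (1.46, adjusted p = 0.0541). The second pyruvate kinase and second malic enzyme genes were thus higher, not lower, on mutant arrays by their means, and me3 passed the test.

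Among the other aldolases, aldoaa differed by 0.50 (adjusted p = 0.387) and aldoca by 0.30 (adjusted p = 0.457) between mutants and controls. The brain-type aldolase aldocb had 2 probe sets that disagreed. The brighter stood at 11.61, 10.32 and 10.87 on mutant arrays, at 7.44, 8.74, 8.17 and 8.46 on azacytidine arrays and at 9.13, 8.04, 11.07 and 10.54 on control arrays, a mutant minus control difference of 1.24 (adjusted p = 0.233) and a mutant minus azacytidine difference of 2.73 (adjusted p = 0.00731). The dimmer differed by -0.23 between mutants and controls. The aldolase B genes of liver were looked for, but no probe set was named for them, so their levels are not known here.

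Of the 6 other glucose transporter genes measured, 0 were called between mutants and controls, with differences between -1.55 for slc2a3a and 0.83 for slc2a15b. The level of slc2a3a was uneven within groups: 5.72, 5.29 and 5.82 on mutant arrays, 4.64, 6.09, 4.82 and 8.73 on azacytidine arrays, and 7.83, 8.34, 6.18 and 6.28 on control arrays. Azacytidine 6 held the highest value of all arrays, so the azacytidine mean for slc2a3a rests on that array more than on the others. All 4 control levels of slc2a15b, 3 of its 4 azacytidine levels and that of mutant 3 lay under the 10th percentile of their arrays. Its mutant minus control difference passed without mutant 3 (1.49, adjusted p = 0.00381), with array weights (1.24, adjusted p = 0.0357) and with low levels set at the 10th percentile (0.82, adjusted p = 0.0353). Leaving out mutant 3, the lowest mutant, can only widen this difference, and the floor replaces all control levels and that of mutant 3.

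**Figure D2:**
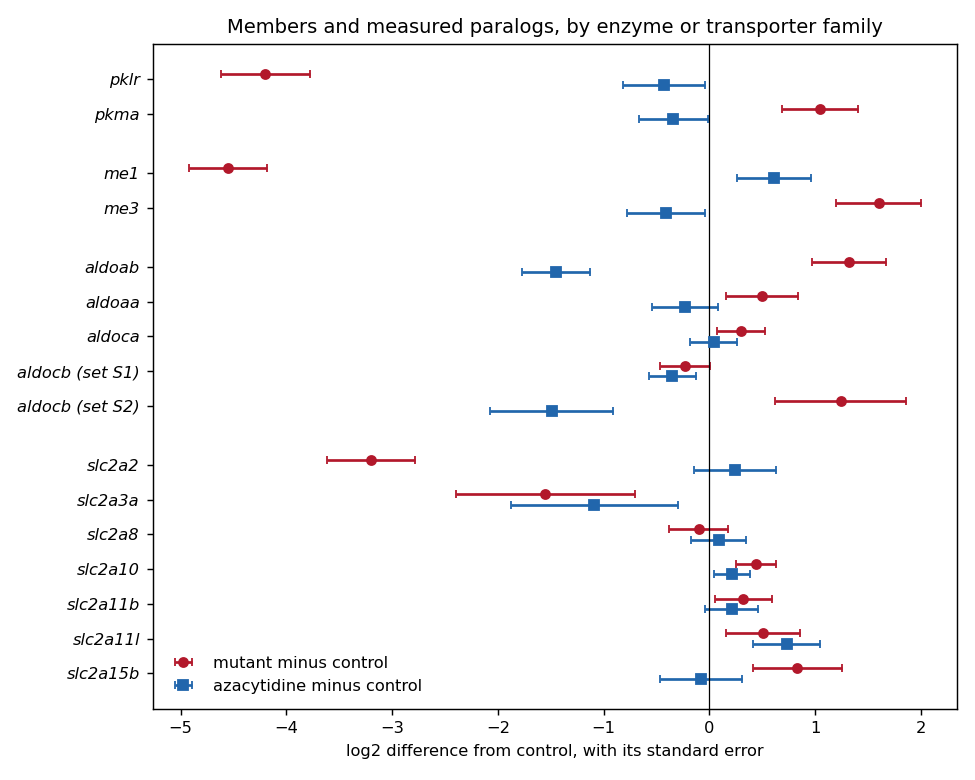
Log2 difference from control (horizontal axis, with its standard error) for mutants (circles) and azacytidine arrays (squares), for each member and each measured paralog, grouped by family; the 2 aldocb probe sets are drawn separately. The 3 points far left are mutant values of me1 (-4.55), pklr (-4.20) and slc2a2 (-3.20), and the aldoab points lie on opposite sides of 0 (1.32 in mutants, -1.45 with azacytidine).

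The other genes of sugar and fat metabolism were taken from 9 lists that overlap in part, with the 4 genes left out. These lists and the marker lists below were also chosen with earlier results of these arrays in view. The p-values, counts and shares of their genes may therefore not be independent of that choice. Over the 105 listed genes measured, 10 were higher and 17 lower in mutants than in controls. Their median difference was 0.04, beside 0.08 for all probe sets and 0.04 for the 7792 named genes. Without control 1 the counts were 5 and 11 (434 and 561 over all probe sets), and without mutant 6 they were 3 and 11 (329 and 427). Without mutant 4 the number higher was 3 (435). With all arrays, the counts over all 12784 probe sets were 797 and 750 (6.23% and 5.87%), beside 9.52% and 16.2% of the listed genes. Mutants against azacytidine gave 25 higher and 23 lower (23.8% and 21.9%), beside 18.2% and 11.1% of all probe sets. All probe sets include unnamed and dim ones, whereas each listed gene was taken at its brightest probe set. These shares are therefore not like for like. Of the 7729 probe sets left without dim ones, 761 were higher and 791 lower against controls, and 1855 and 1250 against azacytidine. Azacytidine against control gave 0 and 0 by limma, beside 0.399% and 0.180% of all probe sets. With shares this small, 0 of 105 genes is near the background and does not show that these genes were unchanged. An unadjusted p under 0.05 was found for 8 higher and 12 lower of the 105, beside 669 and 1270 of all 12784 probe sets.

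In glycolysis, 1 of 24 genes rose and 5 fell in mutants against controls, with a median of 0.35. The lactate dehydrogenase B gene ldhbb, whose enzyme favours lactate to pyruvate, stood at 4.61, 4.67 and 5.45 on mutant arrays, at 9.89, 9.51, 10.22 and 10.31 on azacytidine arrays and at 7.29, 9.21, 8.63 and 8.03 on control arrays. It fell by 3.38 ± 0.42 in mutants (10.4-fold, adjusted p = 0.000476), and its groups did not overlap in any comparison. With azacytidine it was 1.69 higher than in controls, just short of the threshold (adjusted p = 0.0729). This difference passed without control 2 (2.00, adjusted p = 0.0318) or after cyclic loess (1.82, adjusted p = 0.0468). Triose phosphate isomerase (tpi1b, -0.85 ± 0.10, adjusted p = 0.000304) and the enolase eno3 (-0.81 ± 0.12, adjusted p = 0.00146) fell by less, and phosphoglycerate kinase (pgk1) by 1.06 ± 0.27 (adjusted p = 0.0231). The call for pgk1 was lost without mutant 6 (-0.72, adjusted p = 0.0804), control 8 (-0.95, adjusted p = 0.0567) or control 1 (-1.04, adjusted p = 0.0555). The 1 gene that rose, the muscle-type phosphofructokinase pfkma (0.87, adjusted p = 0.043), lost its call in 8 of 11 fits that left out 1 array, with values of 0.68 to 0.98. It also lost its call with arrays centred on their medians (0.75, adjusted p = 0.0606) and after cyclic loess (0.72, adjusted p = 0.0718).

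In gluconeogenesis, the reverse route by which liver makes glucose, 1 of 17 genes rose and 4 fell in mutants, with a median of -0.07. Fructose bisphosphatase fbp1b fell by 1.83 ± 0.29 (adjusted p = 0.00213), the glucose 6-phosphate transporter slc37a4a by 2.09 ± 0.43 (adjusted p = 0.00932), and mitochondrial aspartate aminotransferase got2a by 1.46 ± 0.23 (adjusted p = 0.00202). These 3 calls held in all 11 fits that left out 1 array, but that of slc37a4a was lost with the mean over its 2 probe sets (-1.50, adjusted p = 0.0635). The glucose 6-phosphatase g6pc1a.2, named after its value was seen, differed by -1.65 ± 0.45 (adjusted p = 0.033), a call lost in 5 of 11 such fits, which ranged from -2.05 to -1.21. The second fructose bisphosphatase gene fbp1a went the other way, at 1.05 ± 0.28 (adjusted p = 0.031), a call lost in 4 of 11 such fits (0.80 to 1.29). That call was also lost with arrays centred on their medians (0.93, adjusted p = 0.0612) and after cyclic loess (0.92, adjusted p = 0.0616). Glucose release genes were therefore not all lower on mutant arrays.

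In glycogen metabolism, 0 of 10 genes rose and 3 fell, with a median of -0.31. Phosphoglucomutase pgm1, which interconverts glucose 1-phosphate and glucose 6-phosphate, stood at 10.20, 10.03 and 9.37 on mutant arrays, at 12.32, 12.33, 12.06 and 12.10 on azacytidine arrays and at 12.11, 11.88, 12.19 and 12.34 on control arrays. It fell by 2.26 ± 0.19 in mutants (4.8-fold, adjusted p = 3.68e-05) and overlapped between azacytidine and control arrays. Liver glycogen phosphorylase pygl fell by 1.45 ± 0.38 (adjusted p = 0.0292), a call lost without control 1 (adjusted p = 0.0626), control 2 (adjusted p = 0.058) or control 8 (adjusted p = 0.0602). Without mutant 6 the pygl difference was -0.83. The glycogen-targeting phosphatase subunit ppp1r3ca (-1.81, adjusted p = 0.0494) lost its call in 8 of 11 fits that left out 1 array.

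Of the 4 fructose and galactose genes measured, 1 rose and 2 fell. Galactose mutarotase galm stood at 7.82, 5.42 and 5.29 on mutant arrays, at 9.03, 9.67, 9.24 and 8.16 on azacytidine arrays and at 9.38, 9.17, 8.66 and 9.45 on control arrays. It fell by 2.99 ± 0.56 in mutants (7.94-fold, adjusted p = 0.0054), with mutant 3 the nearest to the other groups, as for pklr. Glycerate kinase glyctk, which acts late in fructose use, fell by 1.27 ± 0.29 (adjusted p = 0.0157), but not without mutant 6 (-0.90, adjusted p = 0.0544). The aldose reductase gene akr1b1.2 rose by 1.53 ± 0.38 (adjusted p = 0.0212), a call lost in 4 of 11 fits that left out 1 array (1.29 to 1.74).

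Of 8 measured genes of the pentose phosphate and NADPH list other than me1, 3 rose in mutants and 0 fell against controls, with a median of 0.35 and with 6 differences above and 2 below 0. Those that rose were mitochondrial isocitrate dehydrogenase idh2 (1.88 ± 0.43, adjusted p = 0.0154), phosphogluconate dehydrogenase pgd of the pentose phosphate route (1.37 ± 0.33, adjusted p = 0.02) and me3 as above. The call for idh2 was lost without mutant 4 (1.62, adjusted p = 0.0662) or mutant 6 (1.56, adjusted p = 0.0762), and that for pgd without mutant 3 (1.04, adjusted p = 0.0655) or control 1 (1.2, adjusted p = 0.0551).

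Of 17 fat synthesis genes, 3 rose in mutants and 0 fell, with a median of 0.07. The gene mid1ip1a, whose mammalian product promotes polymerisation of acetyl-CoA carboxylase, stood at 7.63, 9.18 and 9.98 on mutant arrays, at 4.39, 6.15, 5.24 and 5.73 on azacytidine arrays and at 6.22, 5.39, 6.12 and 6.44 on control arrays. It rose by 2.89 ± 0.53 against controls (7.4-fold, adjusted p = 0.00502), with all mutant arrays above all others. The fatty acid elongase elovl7a rose by 2.75 ± 0.52 (adjusted p = 0.00608), and elovl6l by 1.59 ± 0.40 (adjusted p = 0.0245), a call lost in 4 of 11 fits that left out 1 array (1.07 to 2.05). The enzymes that begin fatty acid synthesis, named after their values were seen, did not pass: ATP citrate lyase aclya differed by 0.20 (adjusted p = 0.588) and acetyl-CoA carboxylase acaca by 0.63 (adjusted p = 0.172). Of the 17 genes, 3 were lower against controls at an unadjusted limma p under 0.05, beside 1446 of all 12784 probe sets. Of these 3, the desaturase fads2, also chosen after its value was seen, was nearest the threshold (-1.33, adjusted p = 0.0511). Against azacytidine arrays 4 were higher and 2 lower in mutants, and fads2 was 1 of those that fell (-1.72, adjusted p = 0.00832).

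Among 17 regulators of sugar and fat genes, 0 rose and 3 fell in mutants, with a median of 0.00. The liver X receptor gene nr1h3 fell by 1.70 ± 0.26 (adjusted p = 0.00201) and the liver transcription factor foxa1 by 1.82 ± 0.29 (adjusted p = 0.00258), both in all 11 fits that left out 1 array. The nuclear receptor hnf4a (-0.93, adjusted p = 0.0458) lost its call in 9 of 11 such fits (-1.09 to -0.72), and the mean over its 2 probe sets differed by -0.38 (adjusted p = 0.32). With azacytidine these 3 genes differed from controls by -0.07, -0.13 and -0.23, in the same order, and none passed.

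The 9 measured isozymes that muscle uses, aldoab left out, had a median of 0.83 in mutants against controls and -0.34 with azacytidine. In mutants 2 rose and 1 fell: adenylate kinase ak1 (1.71 ± 0.40, adjusted p = 0.0166) and pfkma were higher, and eno3, which also stands in the glycolysis list, was lower. The call for ak1 was lost without mutant 6 (1.23, adjusted p = 0.0696) or mutant 4 (1.69, adjusted p = 0.053). With azacytidine 0 of 9 were called. The nearest were muscle creatine kinase ckmb (-0.76, adjusted p = 0.0697) and muscle glycogen phosphorylase pygmb (-2.27, adjusted p = 0.0729), whose groups did not overlap. The pygmb difference passed without control 2 (-2.71, adjusted p = 0.0261) and the ckmb difference without control 1 (-0.89, adjusted p = 0.0295). For ckmb it also passed with dim probe sets left out (-0.76, adjusted p = 0.0479), after cyclic loess (-0.74, adjusted p = 0.0463) and with array weights (-0.70, adjusted p = 0.0387).

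**Figure D3:**
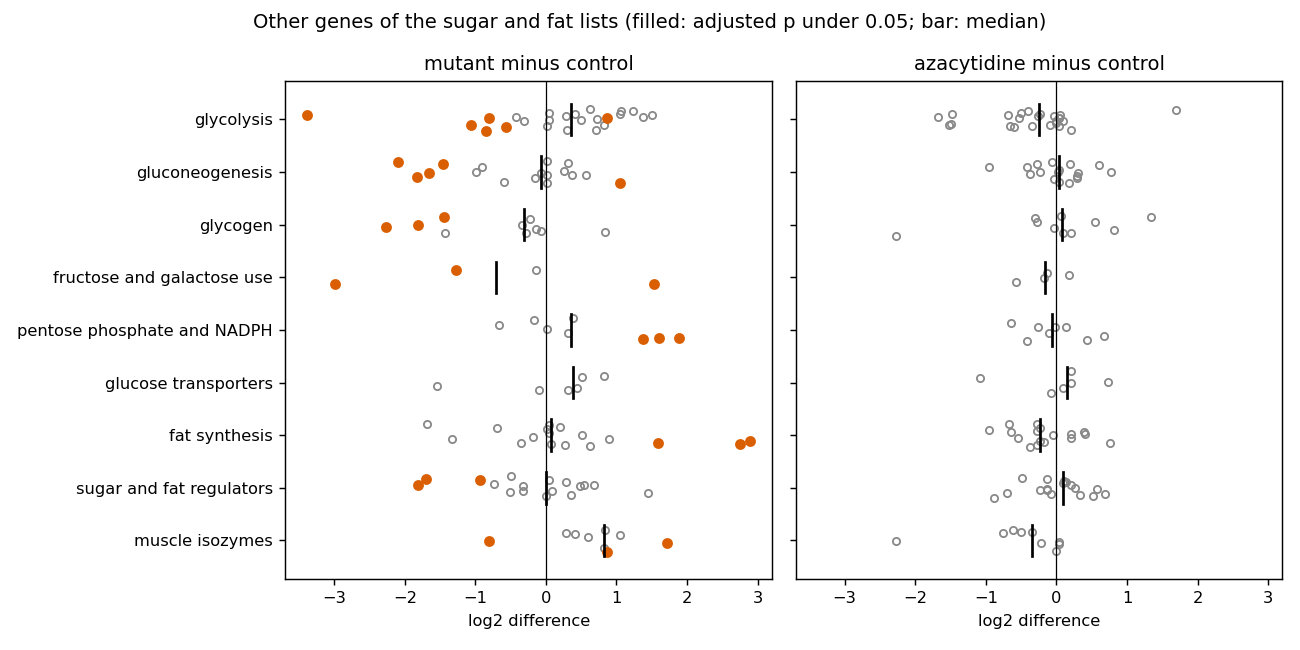
Log2 differences of the listed genes other than the 4 described, by list, for mutant minus control (left panel) and azacytidine minus control (right panel). Filled points passed an adjusted p under 0.05, open points did not, and vertical bars are list medians; 10 genes higher and 17 lower passed on the left (genes in more than 1 list are drawn in each) and 0 on the right.

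Markers of liver, skeletal muscle and epidermis also differed between mutants and controls. In bulk tissue, fewer cells of a type and less RNA per cell cannot be told apart. Of 22 hepatocyte markers, 0 rose and 13 fell in mutants against controls, with a median of -0.77, among them the fatty acid binding protein gene fabp10a (-3.23 ± 0.49, adjusted p = 0.00165), named after its value was seen. Their mean level was 10.67, 10.68 and 9.71 on mutant arrays, 11.98 to 12.19 on azacytidine arrays and 11.64 to 11.92 on control arrays. For pklr and me1, mutant arrays lay further below the hepatocyte marker mean of the same array than all azacytidine and control arrays. The pklr level minus that mean was -2.69, -4.43 and -3.57 on mutant arrays, -2.11 to -0.80 on azacytidine arrays and -1.05 to -0.29 on control arrays. For me1 the difference ranged from -5.73 to -4.73 in mutants, from -2.87 to -1.0 with azacytidine and from -2.34 to -1.78 in controls. For slc2a2 the mutant levels are too low for this measure: with them set at the 10th percentile of their arrays it was -6.16, -6.31 and -5.27 on mutant arrays, which overlapped the -7.53 to -6.13 of azacytidine arrays and the -7.04 to -5.71 of control arrays. Hepatocyte marker means lie near the top of the scale, where the highest level of an array was 13.92 to 14.21, so differences of the markers may be compressed. A fall beyond the marker mean was not particular to pklr and me1. The hepatocyte marker tdo2a, among the genes most like pklr, differed by -5.12 between mutants and controls. Deviations from group means over the 11 arrays correlated with those of the hepatocyte marker mean at r = 0.33 for pklr, 0.46 for slc2a2 and 0.12 for me1. The part of the hepatocyte markers in the liver gene differences was not tested.

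Of 26 skeletal muscle markers, 17 rose and 0 fell in mutants against controls, with a median of 1.26. With azacytidine 0 rose and 2 fell, the actinin gene actn3b (-1.22 ± 0.24, adjusted p = 0.0469) and the parvalbumin gene pvalb3 (-1.50 ± 0.29, adjusted p = 0.0442), both named after their values were seen, with a median of -0.77. The muscle marker mean was 9.49, 9.41 and 10.12 on mutant arrays, 7.5, 7.68, 6.99 and 7.38 on azacytidine arrays, and 7.63, 8.29, 8.46 and 8.60 on control arrays. The array order was close to that of aldoab: mutant 6 was highest, azacytidine 5 lowest, and control 1 the lowest control in both. The aldoab level minus the muscle mean was 1.59 to 2.16 in mutants, 0.90 to 1.63 with azacytidine and 1.81 to 2.06 in controls, so that mutants and controls overlapped and azacytidine arrays lay below the controls. With the muscle marker mean as a term in the model, the aldoab difference was -0.38 for mutants against controls, 0.06 for mutants against azacytidine and -0.43 for azacytidine against controls. The same term left pklr at -3.46 for mutants against controls. The muscle mean was higher on all mutant arrays than on all others, so this term also takes up much of the group difference. Over all probe sets it left 1 called higher and 8 lower in mutants against controls. The marker list also holds actc1b, atp2a1 and tnnt3b, which are among the genes most like aldoab. Deviations of aldoab from its group means correlated with those of the muscle marker mean at r = 0.87 over the 11 arrays. The part of muscle in these differences was not tested.

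Of 12 epidermal markers, 7 rose and 0 fell in mutants against controls. The neural marker mean was 6.99 to 7.77 on mutant arrays and 5.0 to 5.67 on azacytidine arrays, and varied from 5.46 to 8.64 among controls, with 0 of 13 markers called against controls in either group by limma. All 13 were lower with azacytidine than in controls by their means, with a median difference of -1.98 and an unadjusted p under 0.05 for 11, while 0 had one in mutants against controls. Over all 12784 probe sets, 1270 were lower with azacytidine at that unadjusted threshold. For the actin control probe sets, the 3′ minus 5′ level, a measure of RNA integrity and amplification, was 5.59 to 6.21 on mutant arrays, 1.88 to 4.02 on azacytidine arrays and 3.16 to 4.92 on control arrays, so that mutants lay above all others. Actin is also a muscle gene. The part of these values in the differences above was not tested. The targeted gene ahcy stood at 12.11, 11.47 and 11.50 on mutant arrays, 12.06 to 12.61 on azacytidine arrays and 12.30 to 12.47 on control arrays, a difference of -0.70 ± 0.16 against controls (adjusted p = 0.0175) that missed the threshold without mutant 4 (-0.59, adjusted p = 0.0725) or mutant 6 (-0.61, adjusted p = 0.076). The labels do not place the mutation in the gene, so this level does not check the genotype.

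**Figure D4:**
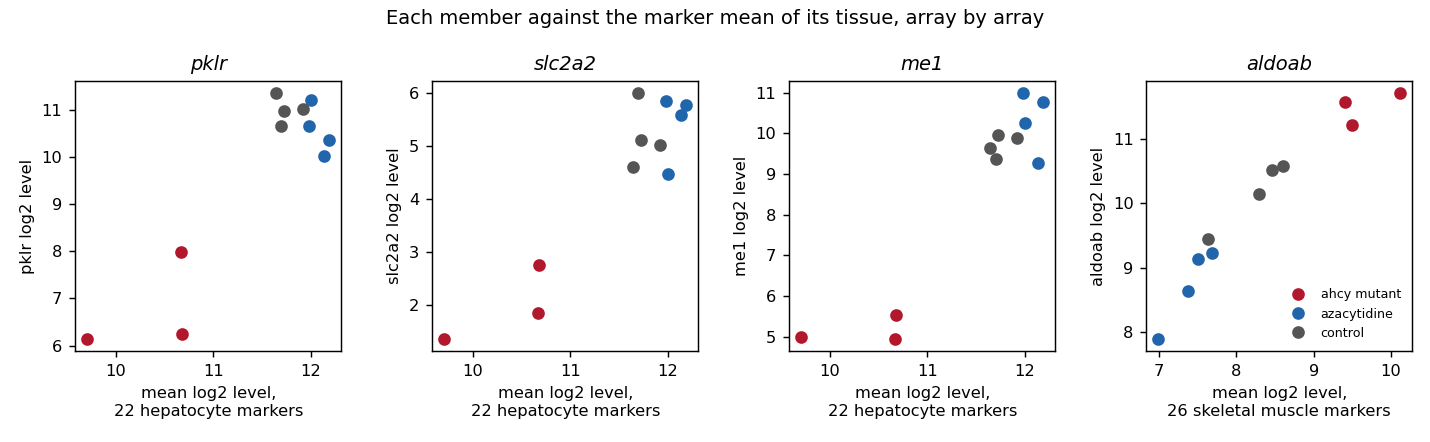
Log2 level of each gene (vertical axis) against the mean log2 level of its tissue's markers on the same array (horizontal axis): 22 hepatocyte markers for pklr, slc2a2 and me1, and 26 skeletal muscle markers for aldoab. Mutant arrays stand apart at the lower left of the first 3 panels, and in the last panel the arrays run from azacytidine 5 (6.99, 7.89) to mutant 6 (10.12, 11.71).

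The genes whose levels over the 11 arrays were most like each member are given as a description, since arrays of a group share their treatment and tissue makeup. For pklr the nearest was leg1.1, a liver-enriched gene in zebrafish (Pearson's r = 0.980 over the 11 arrays, and 0.82 for deviations from group means), and tdo2a, which encodes the liver enzyme tryptophan dioxygenase, was also among the nearest 5 (0.971 and 0.61). For slc2a2 it was the cytochrome P450 gene cyp4v2a (0.970 and 0.73). For me1 it was tmem208 (0.992 and 0.79), followed by stra6l (0.989 and 0.94), and the carnitine palmitoyltransferase gene cpt2 (0.985 and 0.85) and the fatty acid elongase gene elovl8b (0.985 and 0.81) were among the nearest 5. The elovl8b gene was not in the fat synthesis list and differed by -3.50 between mutants and controls at the probe set compared, its brighter, and by -0.86 at its other probe set. For aldoab it was f11r.1 (0.974 and 0.97), and 3 of the nearest 5 were genes of the muscle fibre: the actin actc1b (0.970 and 0.91), the calcium pump atp2a1 (0.969 and 0.83) and the troponin T gene tnnt3b (0.967 and 0.85).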

How the data were processed

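Each array's file column holds deposited log2 levels of its probe sets. The authors computed these log2 values using GCRMA and Partek (no version stated), per the submitters' processing notes. GCRMA corrects background, so low levels are uncertain. Of 12830 probe sets, 46 array controls were left out; 0 columns belonged to unlisted samples. Names came from GEO's platform annotation, in which 8994 probe sets had 1 symbol, 110 several and 3680 none, and only those with 1 were named. A gene with several probe sets was represented by the one with the highest mean. The 12784 probe sets were fitted together with limma 3.58.1 in R 4.3.3, with 3 group means, 11 arrays, 8 residual degrees of freedom and an intensity trend in the variance prior, and were tested 2-sided with Benjamini-Hochberg adjustment over all probe sets; the functions were tested on simulated data. Only 11 arrays limit the precision.

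The 4 genes and all lists were chosen with earlier results of these data known. Named list genes followed a rule: from every list, at most 4 called genes with the lowest p, or where none was called at most 2 with the largest difference, and all measured paralogs; the most alike genes were the 5 with the highest r. Genes outside it are marked as chosen after their values were seen. Arrays of different groups with the same sample number had correlations of deviations of 0.02, -0.21, 0.03 and -0.00. Pairs with unlike numbers ranged from -0.23 to 0.21. The numbers were therefore not used as pairs in the main fit, but so few pairs cannot exclude a shared clutch. Alternatives were other variance priors, normalisations and filters, array weights, 2-group fits, blocks, covariates and leaving out each array. Gene sequences and promoter motifs were not analysed here.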

Additional observations from a re-analysis of the deposited data

Results flagged for a closer look

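In 4 of 140 groups of 4 arrays examined, 1 array lay far from the other 3, measured as its gap to the nearest other array as a share of the group's range, and chance alone gives about 1 in 20 such groups. The aldolase aldoca stood at 5.65 on azacytidine 5, against 5.35 to 5.39 on the other azacytidine arrays (0.867 of the range). Muscle creatine kinase ckmb stood at 11.40 on control 1, against 11.89 to 11.99 on the other controls (0.831 of the range), and control 1 was also the lowest control for aldoab. The mean of the NADPH list stood at 8.79 on azacytidine 1, against 8.95 to 8.97 on the other azacytidine arrays (0.912 of the range). The mean of 9 enterocyte markers stood at 9.35 on azacytidine 6, against 6.22 to 6.42 (0.937 of the range).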

How the results depend on the processing

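The direction of pklr and me1 in mutants against both other groups held under every alternative run, and that of slc2a2 under every run that included it. With dim probe sets left out, slc2a2 was itself left out. The direction of aldoab held under all but the muscle marker mean as covariate (-0.38 against controls, and 0.06 against azacytidine, where the sign held). That covariate gave -3.46 and -2.58 for pklr (against controls and azacytidine). The 10th percentile floor gave -0.73 and -0.97 for slc2a2, and could not have reversed its direction. The neural marker mean as covariate, like the floor added after seeing the data, gave -2.70 for slc2a2 and 2.2 for aldoab against azacytidine, and turned slc2a2 to -0.36 for azacytidine against controls. Leaving out 1 array, the aldoab difference between azacytidine and controls ranged from -1.70 to -1.18. Uncalled differences that changed sign with the muscle term were pkma 0.02 and me3 0.17 (azacytidine), and aldoaa -0.21, aldoca -0.22, aldocb -0.01, slc2a15b -0.19 and aclya -0.03 (mutants); the call of pfkma was also lost there (-0.03). With the neural term pkma gave 0.39, me3 0.05, aldocb 0.06 and eno1b 0.10 (azacytidine). The calls of pkma, me3 and the brighter aldocb probe set in mutants against azacytidine were lost with the muscle term (0.43, 0.46 and 0.73). They were also lost with the neural term (0.50, 1.46 and 0.83) and with the sample number as fixed replicate block (0.67, 2.01 and 1.34). For me3 against controls, the muscle term gave 0.63, not called. Of the 105 listed genes, mutants against controls gave 10 higher and 17 lower. The range without 1 array was 3 to 15 and 11 to 17. Fits of the 2 groups alone gave 4 and 11 (497 and 553 over all probe sets), and the muscle term 0 and 0 (1 and 8). Mutants against azacytidine gave 25 and 23, but 0 and 0 with the muscle term (0 and 6 over all probe sets). With the neural term they gave 2 and 4 (186 and 324 over all probe sets). Azacytidine against controls gave 0 and 0, but 1 and 1 after cyclic loess, 1 lower without dim probe sets or with array weights, and 0 to 1 each without 1 array. Over all probe sets, cyclic loess gave 92 and 28, leaving out dim ones 66 and 46, and array weights 129 and 98. With the sample number as fixed replicate block, which uses up most residual degrees of freedom, me1 was -3.68 in mutants against controls. Counts with that block were 0 and 0 against controls (0 and 9 over all probe sets) and 1 and 5 against azacytidine (82 and 137). Centring moved the median difference of all probe sets to -0.03 in mutants against controls, where it was 0.08 as deposited, and to -0.08 against azacytidine, where it was 0.14. The causes were not tested. The number of arrays and the dim slc2a2 signal limit these values.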

Other observations

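Tissues other than liver can also express slc2a2 or pklr, and their markers are given as values. The enterocyte marker mean (9 genes) was 7.15 to 8.67 on mutant arrays, 6.22 to 9.35 with azacytidine and 7.19 to 9.17 on controls, so that the mutants, where slc2a2 was lowest, lay within the range of the controls but for mutant 4. The kidney tubule mean (5 genes) was 7.68 to 8.51 in mutants, 6.23 to 8.05 with azacytidine and 7.39 to 8.09 in controls. The endocrine pancreas mean (4 genes) was 5.02 to 6.09, 4.43 to 5.29 and 4.69 to 6.80, in the same order. The erythrocyte mean (6 genes), from cells that use the red cell pyruvate kinase, was 7.11 to 8.29 in mutants, 6.89 to 7.63 with azacytidine and 6.97 to 7.54 in controls. Of these 6 genes, 0 were called against controls in either group. At an unadjusted limma p under 0.05, 3 were higher in mutants, beside 1947 of all 12784 probe sets, and 0 differed with azacytidine. Exocrine pancreas markers (12 genes) varied most among controls, from 5.48 to 10.29, with a mean level of 4.97 to 6.19 in mutants and 5.30 to 7.08 with azacytidine. Of 9 leukocyte markers, 2 rose and 1 fell in mutants and 2 rose with azacytidine. Between azacytidine and control arrays, the glycogen-targeting subunit ppp1r3b differed by 1.34 (adjusted p = 0.236), the elongase elovl1b by 0.76 (adjusted p = 0.247), the enolase eno1b by -1.68 (adjusted p = 0.238) and the insulin receptor insra by -0.70 (adjusted p = 0.177), and none passed.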
